A study of Mus musculus with 6 samples.

Results

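The amyloid precursor protein gene App, its homologues Aplp1 and Aplp2, the tau gene Mapt, and Apoe, Clu, Bace1 and Prnp were followed in RNA-seq of the hippocampus, as 8 of 53354 gene symbols. The members were taken as all rows of the isoform table whose isoform name begins with 1 of these symbols, which gave 66 of 133944 isoforms: 11 of App, 5 of Aplp1, 10 of Aplp2, 12 of Mapt, 11 of Apoe, 9 of Clu, 6 of Bace1 and 2 of Prnp. To ask what a gain of the splicing regulator Rbfox1 does in the hippocampus, 3 N-cre mice were compared with 3 N-cre;Fox1 mice, all on the C57BL/6 strain and 3 months old, with 1 library of total RNA per mouse. All 6 mice carried Nes-Cre, a Cre recombinase driven by the nestin promoter. In a reporter cross, the study saw its activity in granule and pyramidal cells of the hippocampus. The N-cre;Fox1 mice carried in addition 1 R26-Rbfox1 allele, in which Cre removes a STOP cassette and the CAG promoter then drives an Rbfox1 cDNA from the Gt(ROSA)26Sor locus. No mice without Cre were sequenced, so an effect of Nes-Cre itself is shared by both genotypes.

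App is cut by the beta-secretase, encoded by Bace1, and by the gamma-secretase, which releases the amyloid beta peptide that accumulates in Alzheimer's disease. Some App and Aplp2 isoforms hold a Kunitz domain, which inhibits serine proteases; neurons mainly make App without it, and other cells make more of the forms that hold it. Tau binds microtubules in axons, and splicing varies its amino-terminal inserts (exons 2 and 3), a long internal part (exon 4A, found in the large tau of peripheral neurons) and a microtubule-binding repeat (exon 10). Apoe and Clu encode secreted lipid carriers made largely by astrocytes, and Prnp encodes the prion protein.

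The isoforms of App and Mapt differ at a few junctions, and also in the bodies of alternative exons and the length of their last exons. The sequences below were read from the GENCODE M21 transcripts (mm10), 15 bases on each side of the junction, 5′ to 3′ on the strand of the gene. Capitals mark the bases of the alternative exon, which at the junction of exons 7 and 8 of App is exon 7. The first 4 show how exon 7, which encodes the Kunitz domain, and exon 8, which encodes the OX2 domain, enter App, and the last 2 show exon 15 present and absent.
App-201, exon 6 to exon 9: aggaggtggtccgagttcccacgacagcag
App-202, exon 6 to exon 7: aggaggtggtccgagAGGTGTGCTCTGAAC
App-202, exon 7 to exon 9: TGTGTGGCAGCGTGTttcccacgacagcag
App-206, exon 7 to exon 8: TGTGTGGCAGCGTGTcaacccaaagtttac
App-206, exon 14 to exon 15: ataccgaaaatgaagTCGAGCCTGTTGACG
App-203, exon 14 to exon 16: ataccgaaaatgaaggttctgggctgacaa

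App (ENSMUSG00000022892.11) lies on the minus strand of chromosome 16, from 84949685 to 85173766. Exon 6 ends at base 85056324, exon 7 (168 nt) spans chr16:85043576-85043743, exon 8 (57 nt) spans chr16:85040251-85040307, and exon 9 starts at base 85030365. Exon 15 (54 nt) spans chr16:84971408-84971461.

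For Mapt, the sequences show the entry into exon 4A, which has 2 alternative starts, the entry into exon 2, and the start of exon 10. Exon numbers follow the usual numbering of tau.
Mapt-204, exon 4 to exon 5: ggcatgtgactcaagctcgtgtggccagca
Mapt-202, exon 4 to exon 4A: ggcatgtgactcaagGGCGTCGTGAAGGCC
Mapt-203, exon 4 to exon 4A: ggcatgtgactcaagAACCGGAGAAGGTCG
Mapt-204, exon 1 to exon 4: accatggcttaaaagccgaagaagcaggca
Mapt-201, exon 1 to exon 2: accatggcttaaaagAGTCTCCCCCACAGC
Mapt-204, exon 9 to exon 10: ccaggaggtggcaagGTGCAGATAATTAAT

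Mapt (ENSMUSG00000018411.17) lies on the plus strand of chromosome 11, from 104231390 to 104332090. Exon 4 ends at base 104294924, and exon 4A spans chr11:104298498-104299256 in Mapt-203, where it is 759 nt long and starts 48 nt before that of Mapt-202 (711 nt). Exon 2 (87 nt) starts at base 104287123, and exon 10 (93 nt) spans chr11:104318157-104318249.

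**Figure D1:**
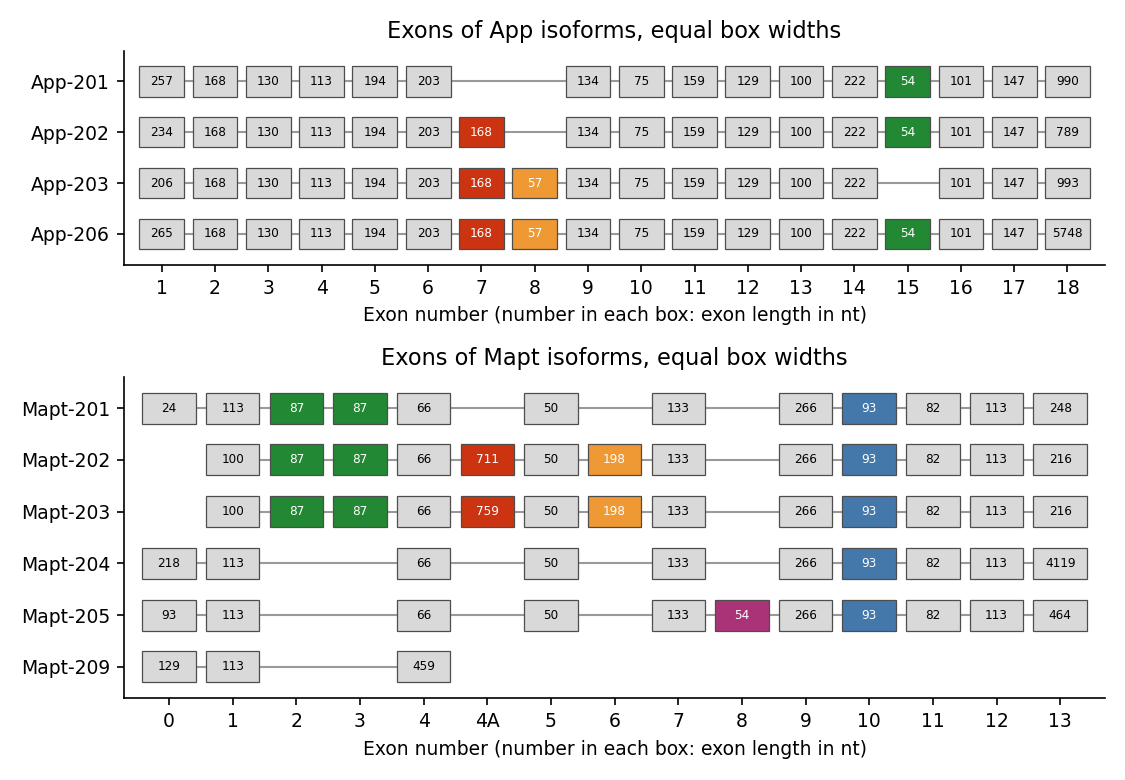
Exons held by the main App isoforms and by 6 Mapt isoforms, by exon number, with equal box widths and the length of each exon in nt inside its box; grey lines join the exons that are spliced together. App-201 lacks exons 7 (red) and 8 (orange), App-203 lacks exon 15 (green), only Mapt-202 and Mapt-203 hold exons 4A (red) and 6 (orange), exons 2 and 3 of Mapt are green and exon 8 purple, and exon 10 (blue) is in each Mapt isoform drawn except Mapt-209.

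The expected counts, which RSEM estimates and which need not be whole numbers, came to between 40463587 and 62141336 per mouse, and the 8 genes held 0.667% to 0.698% of them. Levels are given below as CPM, counts scaled to library size with TMM normalization, and as TPM, which also divides by the annotated isoform length. Sets of 3 values are in the order of replicates 1, 2 and 3 of a genotype. The markers of 10 cell types were detected in each mouse, with none of them at 0 in all mice, and markers of hippocampal neurons (Prox1, Wfs1, Grik4, Zbtb20, C1ql2) summed to 499 to 559 CPM. In 2 mice, N-cre replicate 3 and N-cre;Fox1 replicate 2, the 5 choroid plexus markers summed to 2239 and 5042 CPM, against 26.5 to 36.4 CPM in the other 4 mice, and values that move with them are given with and without these mice. Rbfox1, the gene of the transgene, was at 288, 273 and 277 CPM in N-cre against 300.5, 256 and 288 CPM in N-cre;Fox1 mice. Its genotypes overlapped, with a log2 fold change of 0.01 (SE 0.0566, adjusted p = 0.992 in edgeR's quasi-likelihood test), so the Rbfox1 sum over isoforms did not separate the labels. The study itself reported a modest rise of Rbfox1 mRNA and, by immunoblot, of Rbfox1 protein in N-cre;Fox1 hippocampi.

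Per length, Apoe was the most abundant of the 8 genes, at 3050 to 3497 TPM in the 6 mice, 20th of all genes by mean TPM. App followed at 1242 to 1277 TPM, Aplp1 at 1155 to 1240 TPM, Clu at 946 to 1286 TPM and Prnp at 1007 to 1098 TPM. Aplp1 and Clu overlapped in TPM over the mice, as did Clu and Prnp, while Apoe did not overlap with App, nor App with Aplp1. In N-cre;Fox1 replicate 2 Clu, at 1286 TPM, was above App in any mouse. Aplp2 (434 to 465 TPM), Mapt (295 to 315 TPM) and Bace1 (69.9 to 72.8 TPM) were lower, each without overlap with its neighbours in the order. The secretase gene Bace1 was thus at a mean of 71.7 TPM beside 1261 TPM for its substrate App. In bulk tissue, fewer cells of a type cannot be told apart from less RNA per cell.

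**Figure D2:**
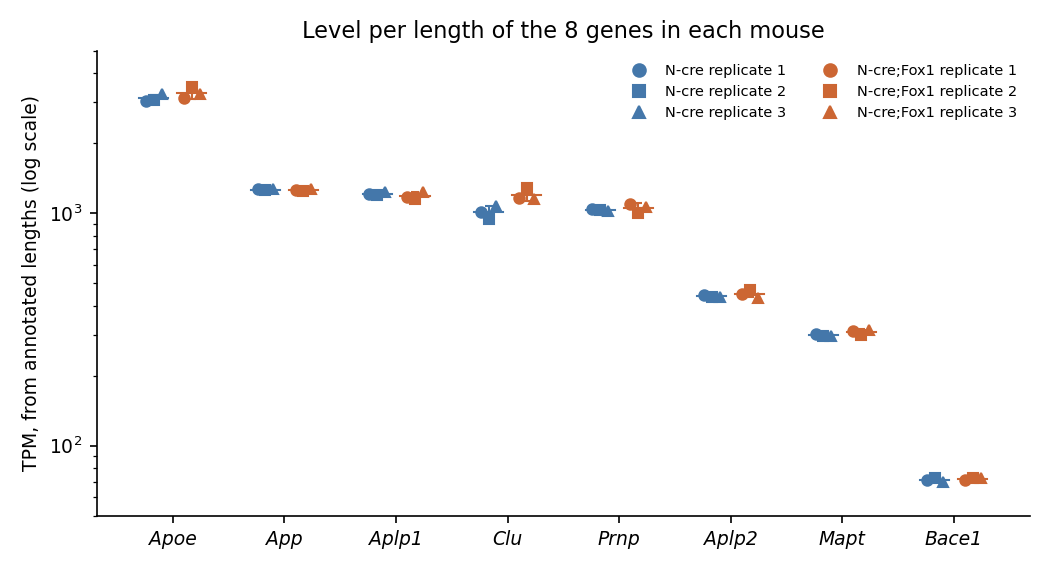
Level per length (TPM, log axis) of the 8 genes in each mouse, ordered by the mean of all mice; symbols mark replicates, horizontal lines the genotype mean and error bars the SD of 3 mice. Apoe sits above 3050 TPM in each mouse and Bace1 below 72.9 TPM, and the genotypes are apart for Clu, at 946 to 1069 TPM in N-cre against 1149 to 1286 TPM in N-cre;Fox1 mice.

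Between the genotypes, 0 of the 8 gene sums passed an adjusted p of 0.05, beside 5 of 18924 genes tested (0.0264%). At an unadjusted p under 0.05, 1 of the 8 passed (Clu), beside 6.19% of all genes, and 1 of the 8 (Clu) did not overlap between the genotypes, beside 12.2% of all genes. The 8 log2 fold changes had a median of 0.03 and ranged from −0.03 (Aplp1) to 0.24 (Clu). Of the 66 isoforms, 52 passed the filter on low counts, and 0 of the 52 passed an adjusted p of 0.05, beside 0% of 50556 isoforms. At an unadjusted p under 0.05, 5 of the 52 isoforms passed (Mapt-203, Mapt-209, Clu-201, Clu-207 and Aplp2-206), all higher in N-cre;Fox1 mice, beside 4.78% of all isoforms. For 8 of the 52, the values of one genotype lay wholly above those of the other (6 above and 2 below in N-cre;Fox1 mice), beside 11.5% of all isoforms. The other 14 isoforms held at most 14.96 expected counts in any mouse and were not tested.

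The App sum was steady across the 6 mice. It was 1666, 1650 and 1656 CPM in N-cre against 1650, 1594 and 1673 CPM in N-cre;Fox1 mice, with the lowest value in N-cre;Fox1 replicate 2 and the others within the N-cre spread or just past it. The means were 1657 ± 7.98 CPM and 1639 ± 40.7 CPM (SD, n = 3), a log2 fold change of −0.02 (SE 0.0373, adjusted p = 0.981 in edgeR's quasi-likelihood test), which was 0.01 without N-cre;Fox1 replicate 2.

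App-201, which encodes the 695-residue protein without the Kunitz and OX2 domains, held most App counts. Its share was 90.8%, 90.5% and 88.9% in N-cre against 90.4%, 87.0% and 90.7% in N-cre;Fox1 mice. The difference of the means, 90.1% ± 1.04 and 89.4% ± 2.04 (SD, n = 3), was within the spread of the mice, with p = 0.6 in a two-sided exact permutation test, which cannot give less than 0.1 for 3 against 3. The lowest share of each genotype was in the mouse with choroid plexus transcripts. Without these mice the mean shares were 90.7% in N-cre and 90.6% in N-cre;Fox1 mice.

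Isoforms with the Kunitz exon 7 held 9.03%, 9.39% and 10.9% of App counts in N-cre against 9.41%, 12.9% and 9.18% in N-cre;Fox1 mice. At 67123 App counts in N-cre replicate 3, the fewest of any mouse, the 95% Wilson interval of its share was 10.7% to 11.2%, which covers counting error only. The genotype means of 9.79% ± 1.01 and 10.48% ± 2.06 (SD, n = 3) differed by 0.70 percentage points (p = 0.6, exact permutation test). The 2 highest shares were those of the 2 mice with choroid plexus transcripts, so the genotypes overlapped and the mice did not sort by genotype. Without N-cre;Fox1 replicate 2 the difference was −0.49 points, and over the 4 mice without choroid plexus transcripts the shares were 9.21% and 9.30%. The part of choroid plexus RNA in the App shares was not tested.

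The isoforms behind the Kunitz share varied differently between the mice. App-202, a 751-residue form with exon 7 and without exon 8, was at 51.3, 50.2 and 72.2 CPM in N-cre against 58.6, 88.3 and 47.9 CPM in N-cre;Fox1 mice. App-203, a 752-residue form with exons 7 and 8 and without exon 15, was at 23.0, 26.7 and 30.8 CPM in N-cre against 23.5, 43.7 and 26.5 CPM in N-cre;Fox1 mice, in the same order. Both were highest in the mouse of each genotype with choroid plexus transcripts, and higher in the one with more of them. Over the other 4 mice, the log2 fold change was 0.07 for App-202 and 0.01 for App-203, in place of 0.17 and 0.22 over all mice. App-206, the 770-residue form with exons 7, 8 and 15, stayed between 73.1 and 79.0 CPM and between 4.42% and 4.74% of App counts in the 6 mice.

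App-206 has a last exon of 5748 nt, of which 4758 nt lie beyond the end of App-201, so that most of the bases that set it apart are there and not in the coding exons. With counts divided by isoform length, the Kunitz share was 7.13% in N-cre and 7.90% in N-cre;Fox1 mice, and with App-206 left out of App it was 5.36% and 6.19%. The retained-intron isoforms App-205 (log2 fold change −0.16, SE 0.243) and App-211 (0.12, SE 0.407) were at means of 1.86 to 2.08 CPM and 0.320 to 0.349 CPM. All 6 tested App isoforms overlapped between the genotypes, with log2 fold changes from −0.16 to 0.22 and adjusted p-values of 0.990 to 0.997 in edgeR's quasi-likelihood test.

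**Figure D3:**
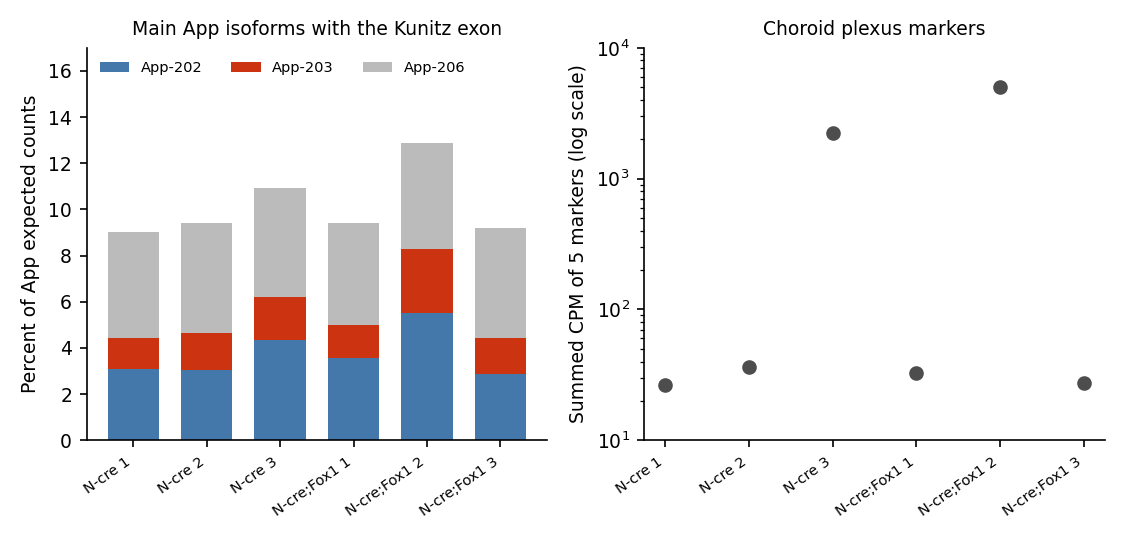
Left, percent of App expected counts on the 3 main isoforms with the Kunitz exon, stacked, in each mouse; right, summed CPM of 5 choroid plexus markers (log axis) in the same mice. N-cre replicate 3 and N-cre;Fox1 replicate 2 have the highest App-202 and App-203 shares and marker sums of 2239 and 5042 CPM, while the App-206 share stays between 4.42% and 4.74%.

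Aplp1, which is found mainly in neurons, was at 1131, 1114 and 1148 CPM in N-cre against 1106, 1054 and 1155 CPM in N-cre;Fox1 mice. The genotypes overlapped, with a log2 fold change of −0.03 (SE 0.0435, adjusted p = 0.961 in edgeR's quasi-likelihood test) that was 0.001 without N-cre;Fox1 replicate 2. Aplp1-201, the 1 coding isoform, held 98.8% to 99.2% of Aplp1 counts in the 6 mice. Of the retained-intron isoforms, Aplp1-205 did not overlap between the genotypes, at 1.96 ± 0.169 CPM in N-cre and 1.67 ± 0.0814 CPM in N-cre;Fox1 mice (SD, n = 3; adjusted p = 0.990).

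Aplp2, the homologue that shares the alternative Kunitz exon with App, was at 504, 494 and 504 CPM in N-cre against 511, 512 and 492 CPM in N-cre;Fox1 mice, with overlap. Its Kunitz exon (exon 7, 168 nt, chr9:31167561-31167728, minus strand) was on 41.8%, 41.0% and 43.7% of Aplp2 counts in N-cre against 43.5%, 45.8% and 43.2% in N-cre;Fox1 mice. As for App, the highest share in each genotype was in the mouse with choroid plexus transcripts. The means of 42.2% ± 1.40 and 44.2% ± 1.39 (SD, n = 3) gave p = 0.3 in the exact permutation test. The share of Aplp2-202, the 707-residue form without the Kunitz exon and with the highest count of the gene, was 49.9%, 51.3% and 49.4% in N-cre and 49.4%, 46.0% and 49.2% in N-cre;Fox1 mice. The ranges were just apart, and p = 0.1 was the smallest the exact permutation test can give. After adjustment over 27 shares this p was 0.675. Over the 4 mice without choroid plexus transcripts, the means were 41.4% and 43.4% for the Kunitz exon and 50.6% and 49.3% for Aplp2-202.

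Aplp2-206, a 636-nt retained-intron isoform of exons 5 and 6, had the lowest p of the 52 member isoforms. It was at 1.06, 1.05 and 1.31 CPM (64.7, 46.9 and 52.9 expected counts) in N-cre against 2.21, 2.25 and 2.22 CPM (119, 131 and 131 expected counts) in N-cre;Fox1 mice. Each N-cre;Fox1 mouse was above each N-cre mouse, with a log2 fold change of 0.97 (SE 0.169). The adjusted p over all isoforms was 0.676 in edgeR's quasi-likelihood test and 0.0209 in the Wald test of DESeq2.

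Mapt-204 was the main tau isoform. It encodes a 372-residue tau without exons 2, 3, 4A, 6 and 8, and has a last exon of 4119 nt, which alone is most of its 5253 nt. The Mapt sum was 581, 565 and 559 CPM in N-cre against 585, 553 and 600 CPM in N-cre;Fox1 mice, which overlapped (log2 fold change 0.03, SE 0.0435, adjusted p = 0.970 in edgeR's quasi-likelihood test). Mapt-204 held 97.2%, 97.6% and 97.4% of Mapt counts in N-cre and 96.3%, 96.6% and 96.7% in N-cre;Fox1 mice. The shares did not overlap, with means of 97.4% ± 0.197 and 96.5% ± 0.225 (SD, n = 3). The exact permutation test gave p = 0.1, the smallest it can give, and 0.675 after adjustment over 27 shares. Of the 27 shares, the others that did not overlap were those of Aplp2-202 and of Mapt isoforms with exon 4A or exon 2. The level of Mapt-204 itself overlapped, at 555 ± 11.2 and 560 ± 22.3 CPM. The share of Mapt-204 and the shares with exons 4A and 2, given below, draw on the same Mapt counts and are not independent.

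Isoforms with exon 4A had more counts in each N-cre;Fox1 mouse than in any N-cre mouse. Mapt-203, a 749-residue form with exons 2, 3, 4A and 6, had 186, 72.4 and 38.5 expected counts in N-cre against 304, 271 and 373 in N-cre;Fox1 mice. This was 3.02, 1.61 and 0.938 CPM against 5.66, 4.66 and 6.31 CPM, with no overlap. The log2 fold change was 1.57 (SE 0.417), or 2.96 times, with an unadjusted p of 0.00907 and an adjusted p of 0.944 in edgeR's quasi-likelihood test. Leaving out each mouse in turn gave log2 fold changes of 1.25 to 2.11.

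Mapt-202, the 733-residue form that enters exon 4A 48 nt later, had 53.5, 9.69 and 71.8 expected counts in N-cre and 157, 147 and 127 in N-cre;Fox1 mice. It did not overlap either, at 0.959 ± 0.780 and 2.53 ± 0.387 CPM (SD, n = 3), with a log2 fold change of 1.40 (SE 0.651, adjusted p = 0.990 in edgeR's quasi-likelihood test). This was 0.94 without N-cre replicate 2 and 2.18 without N-cre replicate 3. Mapt-202 and Mapt-203 differ only in the 48 nt at the start of exon 4A, so the division of reads between them is uncertain. Mapt-203 took 34.9% to 88.2% of their joint counts in the N-cre mice and 64.8% to 74.6% in the N-cre;Fox1 mice.

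Together, the exon 4A isoforms held 240, 82.1 and 110 expected counts in N-cre against 461, 418 and 499 in N-cre;Fox1 mice. As a share of Mapt this was 0.667%, 0.325% and 0.486% against 1.47%, 1.298% and 1.41%, with no overlap between the genotypes. The 95% Wilson interval for N-cre replicate 3, the mouse with the fewest Mapt counts, was 0.403% to 0.584%. The means of 0.493% ± 0.171 and 1.39% ± 0.0855 (SD, n = 3) differed by 0.90 points, and the exact permutation test gave p = 0.1, the smallest it can give, and 0.675 after adjustment over 27 shares. This grouping by exon 4A was chosen after the isoform values were seen, so its p is no independent test. Over the 4 mice without choroid plexus transcripts the shares were 0.496% and 1.44%.

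A share of counts understates a short isoform beside the long Mapt-204. With counts divided by isoform length, the exon 4A share was 1.05% in N-cre and 2.93% in N-cre;Fox1 mice, and among isoforms with a complete coding sequence it was 1.11% and 3.11%. Markers of thalamus and striatum, which border the hippocampus or lie near it, summed to 80.0, 92.1 and 101.3 CPM in N-cre and 74.2, 130 and 78.2 CPM in N-cre;Fox1 mice, with overlap. Of the 6, Adora2a, a striatal receptor, was lower in N-cre;Fox1 mice without overlap (log2 fold change −0.61, SE 0.187, unadjusted p = 0.00809 in edgeR), while the others overlapped. The part of neighbouring tissue in the exon 4A share was not tested.

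Mapt-209, a retained-intron isoform whose last exon runs 393 nt into the intron after exon 4 and ends 3180 nt before exon 4A, was also higher in each N-cre;Fox1 mouse. It had 13.9, 14 and 9.03 expected counts in N-cre against 26.5, 32.4 and 43.0 in N-cre;Fox1 mice. This was a log2 fold change of 1.202 (SE 0.325, unadjusted p = 0.00917, adjusted p = 0.944 in edgeR's quasi-likelihood test). Mapt-205, the only isoform with exon 8, had a log2 fold change of 1.05 (SE 0.506) at 0.382 ± 0.125 and 0.792 ± 0.439 CPM (SD, n = 3), and its genotypes overlapped. This log2 fold change was 0.55 without N-cre;Fox1 replicate 3 and 1.60 over the 4 mice without choroid plexus transcripts.

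Mapt-201, the 430-residue tau with exons 2 and 3 and without 4A, was at 8.43, 7.14 and 7.65 CPM in N-cre against 8.64, 6.86 and 6.70 CPM in N-cre;Fox1 mice, with overlap (log2 fold change −0.07, SE 0.135). Isoforms with exon 2, which include Mapt-202 and Mapt-203, held 2.06% ± 0.218 and 2.85% ± 0.275 of Mapt counts (SD, n = 3) without overlap. The exact permutation test gave p = 0.1, and 0.675 after adjustment over 27 shares. With counts divided by isoform length, the exon 2 shares were 8.89% and 10.04%, and the separation was lost (p = 0.2, exact permutation test). Exon 10 was on 99.3% to 99.5% of Mapt counts in the 6 mice, with p = 0.8 in the exact permutation test. All 5 isoforms with a complete coding sequence hold exon 10, so tau with and without this repeat cannot be told apart in these counts. The partial isoforms Mapt-206, Mapt-207, Mapt-208 and Mapt-210 were at means of 0.237 to 1.73 CPM, overlapped, and had log2 fold changes of −0.24 to 0.19.

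**Figure D4:**
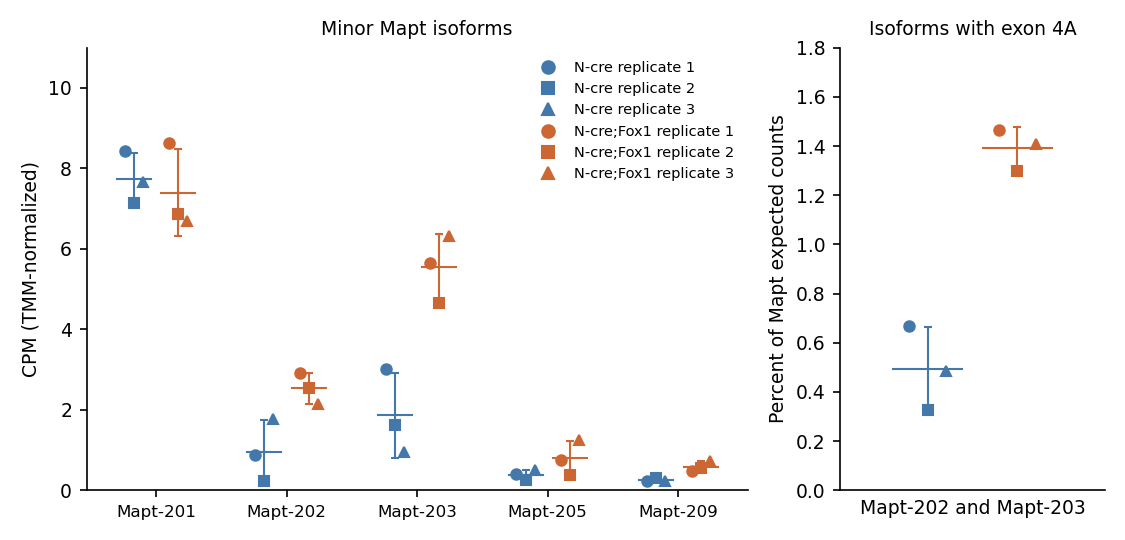
Left, CPM of 5 minor Mapt isoforms in each mouse; right, percent of Mapt expected counts on the isoforms with exon 4A; symbols mark replicates, horizontal lines the genotype mean and error bars the SD of 3 mice. Mapt-202, Mapt-203 and Mapt-209 do not overlap between the genotypes and Mapt-201 and Mapt-205 do, and the exon 4A share is 0.325% to 0.667% in N-cre against 1.298% to 1.47% in N-cre;Fox1 mice.

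Bace1, the beta-secretase, was the least variable of the 8 genes in N-cre;Fox1 mice. It was at 137, 139.7 and 134 CPM in N-cre against 139.5, 138.7 and 139.8 CPM in N-cre;Fox1 mice, with overlap (log2 fold change 0.02, SE 0.0329, adjusted p = 0.964 in edgeR's quasi-likelihood test). Bace1-201, the 501-residue enzyme, held 64.2% ± 1.22 and 64.5% ± 2.76 of its counts (SD, n = 3), and Bace1-202, a 467-residue form, held 19.4% ± 0.944 and 19.2% ± 3.49. The retained-intron isoform Bace1-204 took a further 15.99% and 16.1%.

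Clu, which encodes the secreted chaperone clusterin, was the member gene with the largest difference. It was at 726, 674 and 758 CPM in N-cre against 838, 899 and 817 CPM in N-cre;Fox1 mice, so the lowest N-cre;Fox1 value was above the highest N-cre value. The difference was 0.24 on the log2 scale (SE 0.0539), or 1.184 times, with an unadjusted p of 0.00103 and an adjusted p of 0.453 in edgeR's quasi-likelihood test. It passed the threshold without the filter on low counts (adjusted p = 0.0320 in edgeR) and in the Wald test of DESeq2 (adjusted p = 0.00141). Over the 4 mice without choroid plexus transcripts the log2 fold change was 0.24 too (adjusted p = 0.087 in edgeR). Clu-201, the full-length 448-residue form, held 98.3% to 98.7% of Clu counts, with 710 ± 41.2 and 840 ± 43.7 CPM (SD, n = 3; unadjusted p = 0.00481 in edgeR). The retained-intron isoform Clu-207 was at 1.46, 1.46 and 1.23 CPM in N-cre and 1.69, 2.08 and 2.15 CPM in N-cre;Fox1 mice (log2 fold change 0.51, SE 0.180, unadjusted p = 0.0279 in edgeR). Clu-205, a nonsense-mediated decay isoform, was lower without overlap, at 0.904 ± 0.108 and 0.720 ± 0.0586 CPM (SD, n = 3; adjusted p = 0.990 in edgeR).

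The summed astrocyte markers were also higher in N-cre;Fox1 mice, while their members went both ways. The 8 markers summed to 4392, 4211 and 4198 CPM in N-cre against 4802, 4427 and 4614 CPM in N-cre;Fox1 mice, without overlap, and this was the only one of the 10 marker lists whose sums did not overlap. Of the 8, 4 passed an unadjusted p under 0.05, beside 6.19% of all genes, all higher in N-cre;Fox1 mice (Gfap, Aqp4, Slc1a2 and Gja1). At an adjusted p of 0.05, 0 passed, and the median log2 fold change was 0.06. The largest CPM differences behind the sum were those of Slc1a2 (means of 2042 in N-cre and 2214 in N-cre;Fox1 mice) and Gfap (444 and 579). Slc1a2 also had the highest CPM of the 8, so the sum follows these genes more than the rest. The log2 fold change was above 0 for 5 of the 8 and below 0 for 3: Aldh1l1 (−0.14), S100b (−0.03) and Slc1a3 (−0.02), which overlapped between the genotypes. Gfap, an intermediate filament protein of astrocytes, had a log2 fold change of 0.38. Within the genotypes the order differed, since the highest Clu value of each was in the mouse with its lowest marker sum (N-cre replicate 3 and N-cre;Fox1 replicate 2). Both are the mice with choroid plexus transcripts. The part of astrocyte content in the Clu difference was not tested. Markers of neurons summed to 10826 to 11379 CPM in N-cre against 10132 to 11265 CPM in N-cre;Fox1 mice.

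**Figure D5:**
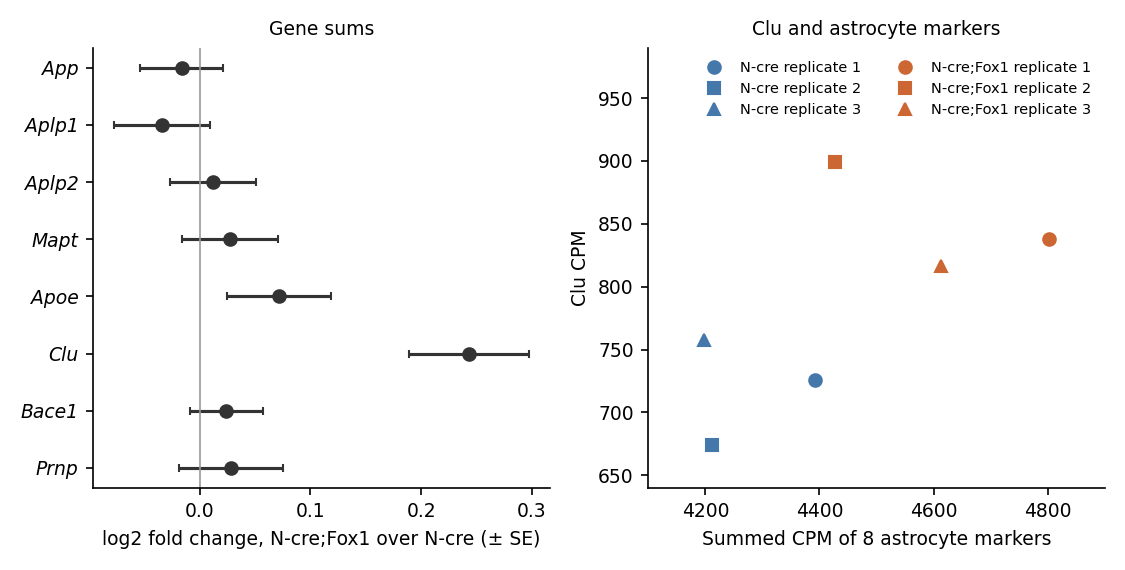
Left, log2 fold change of N-cre;Fox1 over N-cre for the 8 gene sums, with bars for the standard error; right, Clu CPM against the summed CPM of 8 astrocyte markers, 1 symbol per mouse, with axes that do not start at 0. Clu has the largest log2 fold change (0.24, SE 0.0539), and the N-cre;Fox1 mice are above the N-cre mice on both axes.

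Apoe, the lipid carrier with the highest TPM here, was at 1124, 1126 and 1196 CPM in N-cre against 1154, 1267 and 1198 CPM in N-cre;Fox1 mice. The genotypes overlapped, with a log2 fold change of 0.07 (SE 0.0469, adjusted p = 0.884 in edgeR's quasi-likelihood test). The highest values within each genotype were those of the mice with choroid plexus transcripts, and over the other 4 mice the log2 fold change was 0.07 too. The coding isoform Apoe-209 (311 residues) held 51.5% ± 0.311 and 52.1% ± 1.24 of Apoe counts (SD, n = 3), and Apoe-202, which is annotated as a processed transcript without a coding sequence, held 40.8% ± 0.763 and 39.97% ± 0.660. Apoe-206, which encodes the same 311 residues from a longer transcript, was at 49.6, 44.9 and 74.1 CPM in N-cre against 48.7, 77.6 and 50.8 CPM in N-cre;Fox1 mice, again highest in the mice with choroid plexus transcripts, with means of 47.2 and 49.7 CPM over the other 4 mice.

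Prnp, the prion protein gene, was at 916, 904 and 889 CPM in N-cre against 968, 864 and 930 CPM in N-cre;Fox1 mice. The N-cre;Fox1 values lay on both sides of the N-cre range, with a log2 fold change of 0.03 (SE 0.0472, adjusted p = 0.972 in edgeR's quasi-likelihood test). Prnp-201, which encodes the 254-residue protein, held all counts of the gene except 1.03 in N-cre replicate 2 and 1.03 in N-cre;Fox1 replicate 3.

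Other genes of these pathways gave 0 calls at an adjusted p of 0.05. The median log2 fold change of 26 tested genes for App processing and App adaptors was 0.01, beside 0.00 over all genes. Of these 26, 1 passed an unadjusted p under 0.05, beside 6.19% of all genes. This was Adam9, a metalloprotease that can cut App, at 53.5 ± 2.06 and 58.0 ± 0.327 CPM (SD, n = 3; log2 fold change 0.12, SE 0.0370). Of 26 tau kinases, phosphatases and other microtubule-associated proteins, 2 passed an unadjusted p under 0.05, beside 6.19% of all genes, and the median was −0.01. They were Map7, which binds microtubules (log2 fold change −0.15, SE 0.0398), and Dyrk1a, a kinase of tau (0.11, SE 0.0409).

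Of 16 genes of lipid transport and apolipoprotein receptors, 13 had log2 fold changes above 0, and the median was 0.05, beside −2.42e-05 over all genes. At an unadjusted p under 0.05, 2 of the 16 passed, beside 6.19% of all genes. Among these was Abca1, which loads lipid onto Apoe and had a log2 fold change of 0.15 (SE 0.0650), with overlap between the genotypes. Of 29 other neurodegeneration genes, 1 passed an unadjusted p under 0.05, beside 6.19% of all genes, and the median was −0.01. It was Atxn7, the gene of spinocerebellar ataxia type 7 (log2 fold change 0.18, SE 0.0482).

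Over the 6 mice, the log2 CPM of App was most like that of Pou3f1 (Pearson r = 0.998), Ercc4 (0.994) and Ube2l3 (0.992), among the 8257 genes whose normalized counts averaged 1000 or more. For Mapt the most like were Plppr4 (r = 0.990), Map4 (0.979) and Rac1 (0.976). App spanned 0.07 and Mapt 0.12 on the log2 scale over these mice, so these correlations, chosen as the highest of many, describe small differences between 6 libraries normalized together.

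Rbfox proteins bind RNA at GCATG, mostly as TGCATG (written as DNA), and the spliced sequences of the highest-count isoform of each member were searched for both on the transcript strand, where each TGCATG also counts as a GCATG. App-201 held 5 GCATG and 1 TGCATG, beside medians of 3 and 1 over such isoforms of all genes within 10% of its length, of which 94.1% held at least 1 GCATG and 57.4% at least 1 TGCATG. Mapt-204 held 3 GCATG and 0 TGCATG, beside medians of 5 and 1 (99.0% and 78.0% with at least 1), and Clu-201 held 2 and 1, beside medians of 1 and 0 (77.7% and 36.8%). Apoe-209 held none of either, beside medians of 1 and 0 (65.5% and 23.5%), and Aplp1-201 held 5 and 1, beside medians of 2 and 0 (86.2% and 46.9%). Aplp2-202 held 4 and 2, beside medians of 3 and 1 (95.5% and 61.1%), Prnp-201 held 3 and 2, beside medians of 2 and 0 (83.6% and 43.8%), and Bace1-201 held 4 and 0, beside medians of 6 and 2 (99.3% and 81.4%). The Kunitz exon of App held 1 TGCATG, exon 4A of Mapt-203 held 1 GCATG, and exon 10 of Mapt held none. Exons 8 and 15 of App and exons 2, 3 and 6 of Mapt held none either. The last 15 bases of Mapt exon 4, printed above, also hold a GCATG, shortly before the junction with exon 4A or exon 5. The long last exon of App-206 held 7 GCATG and 2 TGCATG, and that of Mapt-204 held 2 GCATG and 0 TGCATG. Single exons were not compared with others of their length. Introns, where many Rbfox sites lie, were not searched, and a match in these letters is not a measured binding site.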

How the data were processed

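Total RNA of the hippocampi of 6 mice was sequenced with a stranded total RNA kit. The authors trimmed the reads with Cutadapt 1.18, aligned them to mm10 with STAR 2.5.2b and deposited RSEM 1.3.0 expected counts per isoform, without normalization. Genotypes were taken from the sample labels. The 8 genes, the isoform groups and the gene lists were chosen with earlier results of these data known.

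Expected counts were summed over isoforms for genes, then rounded and filtered with filterByExpr (minimum count 10, minimum total 15). The genotypes were compared with the quasi-likelihood test of edgeR 4.0.16 in R 4.3.3 (TMM, robust, no term but genotype). Benjamini-Hochberg adjustment ran over 18924 genes or 50556 isoforms, with a threshold of 0.05. The edgeR fits were also run on simulated data with 200 changed genes or isoforms. Those changes were larger than that of Clu and at higher counts than those of Mapt-209, so the run does not give the power for these. Shares of isoforms with at least 1% of a gene, and of isoforms grouped by exon, were compared with two-sided exact permutation tests in NumPy 2.4.6. TPM and exons used GENCODE M21 (mm10), in which 130826 isoforms have the same identifier and version. Because RSEM divides shared reads between isoforms, isoform counts are estimates and gene sums are firmer.

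All 8 genes, all App and Mapt isoforms that passed the filter, and the top isoform or those at an unadjusted p under 0.05 of the other genes were named. List genes were named at an unadjusted p under 0.05, except 1 that is not reported here. Isoforms whose genotypes did not overlap were added after their values were seen. So were the groups by App exons 8 and 15, Mapt exons 2 and 4A and the Aplp2 Kunitz exon. Also added then were Apoe-202, Apoe-206, Bace1-202, Bace1-204, Gfap with the other astrocyte markers, and the values of single hippocampal neuron markers. Alternatives were DESeq2 1.42.0 (Wald test, or its size factors in edgeR), no filter beyond 1 count, expected counts without rounding, a replicate block, a term for mice with over 1000 Xist counts, each mouse left out, and for shares other denominators; the 4 mice without choroid plexus transcripts, App without App-206 and complete coding isoforms per length were added after the data were seen. Depth per mouse was 40463587 to 62141336 counts, and the spread between 3 mice limits the precision.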

Additional observations from a re-analysis of the deposited data

How the results depend on the processing

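Of 351 alternative log2 fold changes for 27 member genes and isoforms, 332 kept their direction and their side of the threshold. Calls depended on the tool and the filter. Without the filter, 45 genes and 10 isoforms were called over the whole table, and 1 of the 8 member genes (Clu). The Wald test of DESeq2 called 50 genes and 215 isoforms, among them 1 member gene (Clu) and 2 member isoforms (Clu-201 and Aplp2-206). A term for Xist gave 11 genes, expected counts that were not rounded gave 1 isoform, and leaving out 1 mouse gave 2 (without N-cre replicate 2) to 29 genes (without N-cre;Fox1 replicate 1). In these edgeR fits without 1 mouse, 0 member genes and 0 member isoforms were called, and the adjusted p of Clu was 0.199 to 1.00. The cause of these differences was not tested. Same-numbered mice had correlations of r = 0.378, −0.0951 and −0.211. The highest r between genotypes, 0.439, was that of N-cre replicate 3 and N-cre;Fox1 replicate 2, the mice with choroid plexus transcripts. These values therefore cannot tell whether the numbers pair the mice. With a replicate block 0 member genes and 0 member isoforms were called, and the log2 fold change of Clu was 0.24 (adjusted p = 0.620 in edgeR). Directions turned for small values when 1 mouse was left out. The log2 fold change then ran from −0.031 to 0.0057 for App, −0.067 to 0.0010 for Aplp1, −0.0048 to 0.074 for Prnp, −0.017 to 0.042 for Mapt-204, −0.25 to 0.025 for Mapt-206 and −0.12 to 0.29 for Mapt-210. It ran from −0.056 to 0.0079 for App-201, −0.12 to 0.36 for App-202, −0.10 to 0.39 for App-203, −0.27 to 0.066 for App-205 and −0.24 to 0.35 for App-211. Share differences ran from −0.488 to 1.35 points for Kunitz exon isoforms of App, −0.208 to 0.526 for those with exon 8, −0.115 to 0.543 for those with exon 7 and without exon 15, −1.33 to 0.488 for App-201, −0.280 to 1.05 for App-202, −0.112 to 0.546 for App-203 and −0.0340 to 0.0453 for exon 10 of Mapt. The turned App shares and the turned App, Aplp1, App-201, App-202 and App-203 values were those without N-cre;Fox1 replicate 2. Over the 4 mice without choroid plexus transcripts, the log2 fold change was 0.0049 for App, 0.012 for Aplp1, −0.15 for Mapt-210 and 0.20 for App-205, and the difference for App with exon 8 was −0.0720 points. Counts per isoform depend on how RSEM divided shared reads, isoforms such as Mapt-209 (9.03 to 43.0 counts) carry the counting error of low counts, and 3 mice per genotype limit every comparison.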
